A study of Papio anubis with 28 samples.

Results

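Matrix proteases and their inhibitors were followed through the native bladder and the grafts of olive baboons whose bladders had been enlarged in 1 of 3 ways. The genes were taken by symbol: every row of the deposited table named MMP, TIMP, ADAMTS or ADAMTSL followed by a number. That rule found 50 of the 27533 genes in the table, namely 22 MMPs, 4 TIMPs, 19 ADAMTS and 5 ADAMTS-like genes. Of these, 45 had enough reads to be tested. MMP8, MMP10, MMP20, MMP26 and ADAMTS20 did not, and MMP26, a short epithelial protease, had no read in any of the 28 libraries.

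The matrix metalloproteinases (MMPs) are zinc enzymes that are secreted or held at the cell surface and cut collagens, basement membrane and other matrix proteins. The tissue inhibitors of metalloproteinases (TIMPs) block their active site, so that activity in tissue depends on the balance between enzyme and inhibitor and on removal of the enzyme's propeptide, neither of which a transcript level measures. The ADAMTS enzymes cut proteoglycans, procollagens and blood or microfibril proteins, and the ADAMTS-like proteins share their non-catalytic domains but lack the protease. In a scaffold these enzymes remove implanted or newly laid matrix, and in the bladder wall they come from epithelium, fibroblasts, muscle and infiltrating leukocytes.

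Gene expression was measured by RNA sequencing of polyadenylated RNA in 28 libraries from 14 olive baboons (Papio anubis), all labelled wild type, and each animal gave 1 library of its graft and 1 of its native bladder. The groups were 5 ileum grafts of the Entero arm (bowel sewn into the bladder, the operation called enterocystoplasty), 5 regenerated grafts of the SIS arm and 4 regenerated grafts of the PRS arm, each set against the native bladders of the same animals (5, 5 and 4). In the SIS and PRS arms the graft was a scaffold seeded with primary cells of bone marrow, namely mesenchymal stromal cells together with CD34+ haematopoietic stem and progenitor cells. SIS usually stands for small intestinal submucosa, a decellularised bowel matrix. The sources used here do not give the meaning of PRS, the time from surgery to sampling or the place sampled within each graft. No scaffold without cells and no ungrafted ileum was analysed here, so an effect of the cells, or of grafting on bowel, cannot be read from these groups.

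Totals ran from 20975648 to 35669026 counts per library. The mitochondrial share of counts was 14 to 33.9% for ileum grafts and 4.66 to 11.6% for all other libraries. The ileum grafts carried bowel epithelium: all 7 tested intestinal markers were higher than in native bladder, and the uroplakins UPK1A and UPK2, which coat the bladder lining, lay at 0 to 6.09 and 0 to 4.19 CPM (reads scaled to a common library total by TMM) against 153 to 2260 and 71.8 to 1100 CPM in the native bladders of that arm. Smooth muscle content differed widely inside groups, with DES at 1040 to 40200 CPM in ileum grafts and at 2840 to 32600 CPM in their native bladders. SIS graft library 2 stood apart. Its 5 acute inflammation genes (IL6, IL1B, PTGS2, CCL2 and SOD2) summed to 3330 CPM, against 53.4 to 118 CPM in the other 4 SIS grafts, and results that rest on it are given with and without it. These are pieces of tissue, so fewer cells of a type and less RNA per cell cannot be told apart.

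Per unit of length, MMP7 and TIMP1 were the leading transcripts of the family. MMP7, or matrilysin, is a small secreted protease of epithelia. In TPM, a level scaled to library total and to the deposited gene length, MMP7 averaged 17.7 ± 21.4 in ileum grafts, 3390 ± 2650 in SIS grafts and 12800 ± 13400 in PRS grafts, while the native bladders averaged 4460 ± 2830 in the Entero arm, 1880 ± 1740 in the SIS arm and 3870 ± 3710 in the PRS arm (SD, n = 5, 5, 4, 5, 5 and 4). It was the highest of the 50 genes per length in 15 of the 28 libraries and in none of the 5 ileum grafts, where TIMP1 led in 4 and TIMP2 in 1. Among the 4 inhibitors the order was nearly fixed: TIMP1 was highest per length in 27 of 28 libraries, TIMP2 stood above TIMP3 in 28 of 28, and TIMP4 was lowest in 28 of 28. The deposited length of TIMP2 is only 537 bases, so its place above TIMP3 rests on that entry. Of the other enzymes, MMP14, the membrane-bound collagenase that also activates the MMP2 precursor, averaged 52.7 ± 38.4, 138 ± 47.4 and 107 ± 41.9 TPM in ileum, SIS and PRS grafts, and MMP2, the gelatinase of fibroblasts, averaged 25.4 ± 21.3, 120 ± 73.5 and 79.4 ± 61.1 TPM (SD, n = 5, 5 and 4).

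**Figure D1:**
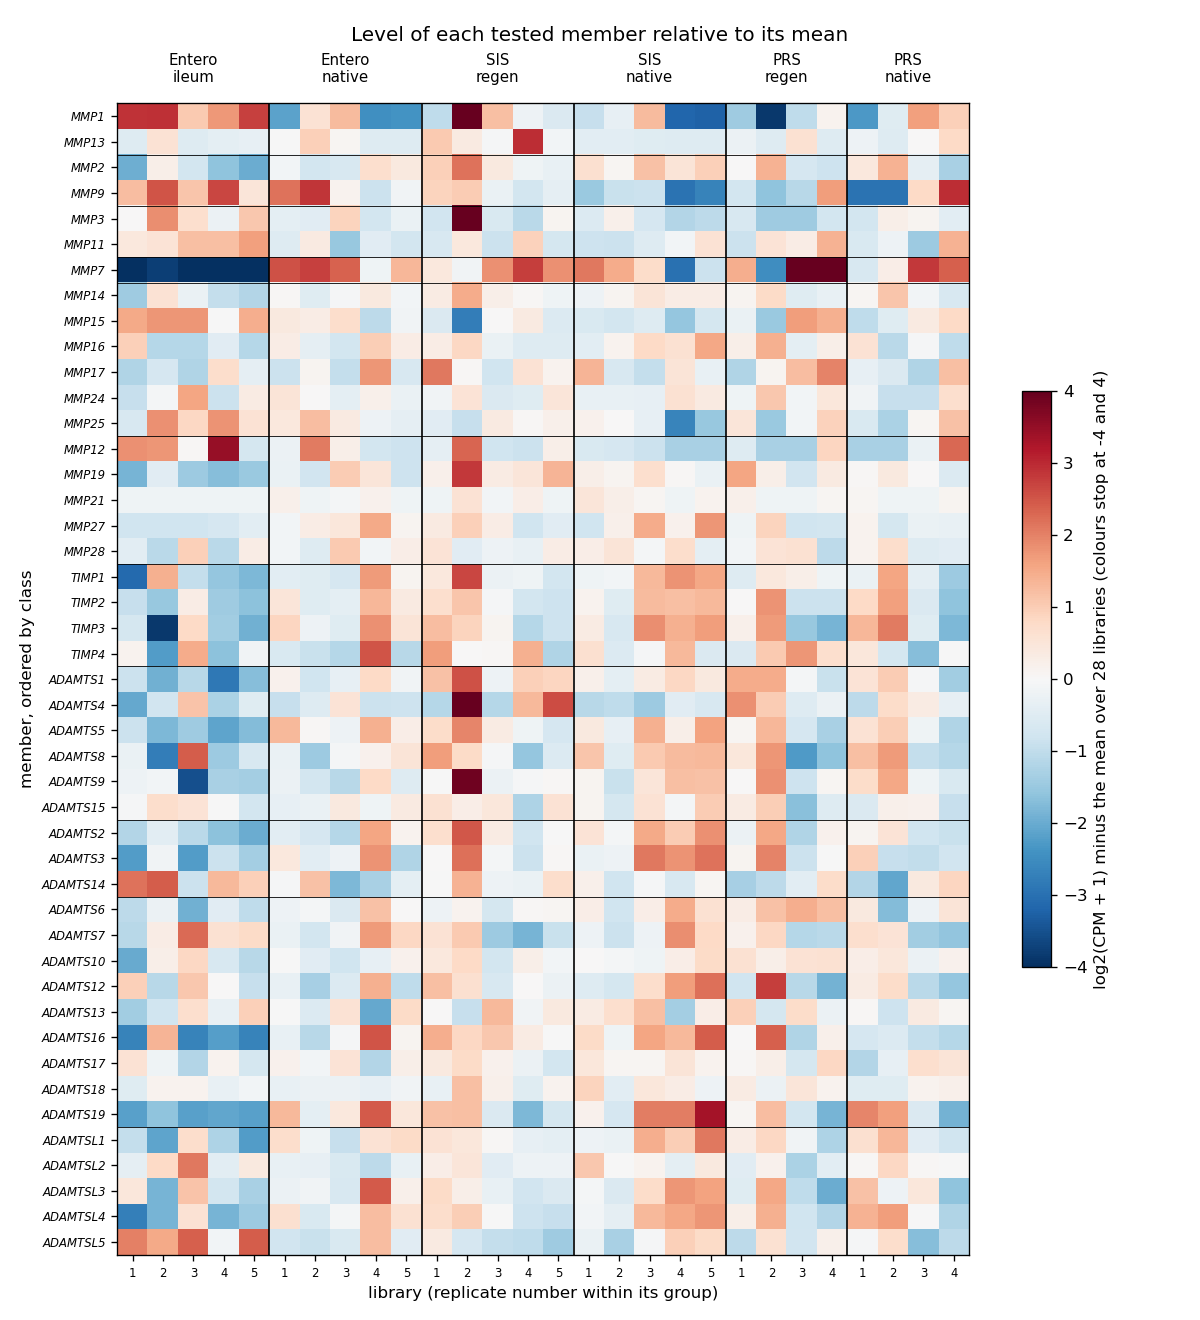
Each row is 1 of the 45 tested genes, ordered by class, and each column 1 of the 28 libraries; colour is log2(CPM + 1) minus the gene's mean over all libraries, in red above and blue below, with colours that stop at -4 and 4. MMP7 is deep blue in all 5 ileum grafts, and SIS graft library 2 is the reddest column for MMP1, MMP3, ADAMTS4 and ADAMTS9.

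Setting the ileum graft against native bladder asked how the protease repertoire of a bowel patch differs from that of the bladder wall it was sewn into. In the ileum grafts 2 of the 45 tested genes were higher and 5 were lower than in native bladder, while 15% of all 17177 genes tested changed (7.72% higher and 7.33% lower), so the share of proteases that changed was near the background. MMP7, ADAMTS19, ADAMTS5, ADAMTS1 and MMP19 were lower, and ADAMTSL5 and ADAMTSL2 higher (edgeR's quasi-likelihood test, Benjamini-Hochberg adjusted over all genes tested, threshold 0.05). The median log2 fold change of the 45 was -0.66, against -0.03 over all genes tested. An unadjusted p under 0.05 was reached by 16 of the 45, against 28.5% of all genes tested.

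Of the MMPs, MMP7 had the widest gap. It had 6.49, 38.2, 1.27, 11.2 and 7.39 CPM in the 5 ileum grafts, against 3110, 3540, 2710, 464 and 1340 CPM in the native bladders of the same animals. Every graft lay below every native bladder, and the difference within animals ran from -10.23 to -5.25 on the log2(CPM + 1) scale. The log2 fold change was -7.43 (SE 1.29, 95% interval -10.08 to -4.79, edgeR adjusted p = 0.00021). Of the 7 urothelial markers measured, 6 were lower in the ileum grafts and 1, KRT20, which intestinal epithelium also makes, was higher. The grafts are bowel and the native samples bladder, so this is a difference between tissues and not a fall within 1 tissue. Whether the lower MMP7 goes with a bowel lining in place of urothelium was not tested.

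MMP19, a secreted protease of many cell types that cuts basement membrane proteins, had 3.72, 11.6, 5.26, 4.32 and 5.14 CPM in ileum grafts, against 13.3, 9.06, 33.8, 23.1 and 8.58 CPM in native bladders. The groups overlapped through ileum graft 2, the one animal of the 5 in which the graft was higher. The log2 fold change was -1.54 (SE 0.51, edgeR adjusted p = 0.041), and blocking by animal gave an adjusted p of 0.0889. The call was also lost in 6 of the 10 fits that leave out 1 library (ileum graft 1, 3, 4 or 5, or native bladder 3 or 4), over which the log2 fold change ran from -1.93 to -1.17 with an adjusted p of up to 0.146.

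The other MMPs did not pass. MMP11, or stromelysin-3, which is activated inside the cell by furin, had 5.93, 6.47, 10.8, 10.9 and 15.1 CPM in ileum grafts, against 2.6, 5.58, 0.793, 2.73 and 2.05 CPM in native bladders, with no overlap between the groups and a log2 difference of 1.83 (SE 0.65, edgeR adjusted p = 0.0571). For MMP11 and the other genes of this arm without overlap, the share over all genes tested was not computed. MMP15, a membrane-type enzyme, had 229, 277, 271, 78.4 and 220 CPM in ileum grafts, against 106, 98.5, 131, 38.1 and 72.7 CPM in native bladders. All 5 animals had more of it in the graft, and only graft 4 lay within the native range (log2 difference 1.27, SE 0.53, edgeR adjusted p = 0.108). The interstitial collagenase MMP1 had 107, 110, 29.5, 47.8 and 96.3 CPM in ileum grafts, against 2.35, 20.7, 33.7, 1.65 and 1.78 CPM in native bladders, with the graft above the native bladder in 4 of 5 animals (log2 difference 2.70, SE 1.45, edgeR adjusted p = 0.226). MMP2, MMP14 and MMP28, an epithelial protease, had log2 differences of -0.96, -0.44 and -0.26, none of which passed. MMP21, a gene of left-right patterning in human embryos, had no read in the 5 ileum grafts, which allows up to 0.0296 CPM over the group, and lay between 0 and 0.289 CPM in native bladders.

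Among the ADAMTS enzymes the proteoglycan-cutting class held 2 of the changes, both downward, in 6 tested members. Of all genes tested, 7.33% were lower, and the median log2 difference of the class was -0.32. ADAMTS5, an aggrecanase that also cuts versican, had 3.87, 1.55, 2.29, 1.05 and 1.7 CPM in ileum grafts, against 21, 8.1, 6.7, 22.6 and 9.63 CPM in native bladders. No graft reached the lowest native bladder, and the log2 fold change was -2.70 (SE 0.64, edgeR adjusted p = 0.00452). ADAMTS1, its neighbour on the chromosome and a versican-cutting enzyme, had 59, 27.8, 50.3, 14.1 and 32.5 CPM in ileum grafts, against 122, 61.7, 86, 188 and 99.1 CPM in native bladders. Here too the groups did not overlap, and the log2 fold change was -1.60 (SE 0.51, edgeR adjusted p = 0.035). The ADAMTS1 call was lost in 5 of the 10 fits without 1 library (ileum graft 2, 4 or 5, or native bladder 1 or 4), with log2 fold changes from -1.83 to -1.33 and an adjusted p of up to 0.0955.

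ADAMTS19, whose human gene is linked to heart valve disease and whose substrate is poorly known, was close to absent from the ileum grafts. It had 0, 0.451, 0, 0.0475 and 0 CPM there, against 9.9, 2.38, 4.96, 23.3 and 5.06 CPM in native bladders. The 5 ileum libraries held 10 reads of it in all, against 1218 reads in the 5 native libraries. The fitted log2 fold change of -6.46 (SE 1.42, edgeR adjusted p = 0.00246) therefore rests on few reads on the graft side. ADAMTS16, a related enzyme, had 0, 15.3, 0, 0.38 and 0 CPM in ileum grafts, against 4.08, 1.92, 5.15, 34.8 and 5.76 CPM in native bladders. It was lower in 4 of 5 animals, and the call turned on the design: the log2 difference was -1.72 (edgeR adjusted p = 0.369), and blocking by animal made it -5.99 (adjusted p = 0.0245), in a fit that called 6 of the 45 and 12.7% of all genes tested.

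The ADAMTS-like class held both increases, in 5 tested members, against 7.72% of all genes tested that were higher. The class as a whole was not raised: its median log2 difference was -0.99, and the 3 members that did not pass lay below 0. ADAMTSL5, a secreted microfibril-binding protein, had 113, 79.3, 147, 25.3 and 149 CPM in ileum grafts, against 15.8, 14.3, 17.5, 65.1 and 19.6 CPM in native bladders. Animal 4 ran the other way, with the lowest graft and the highest native bladder. The log2 fold change was 1.96 (SE 0.57, edgeR adjusted p = 0.0188), and it was no longer past the threshold without ileum graft 5 or without native bladder 1, 2, 3 or 5 (log2 fold change 1.79 to 2.61 over the 10 omissions, adjusted p up to 0.0563). ADAMTSL2, which binds fibrillin and a latent TGF-beta binding protein, had 3.12, 8.02, 21.7, 2.95 and 5.89 CPM in ileum grafts, against 3.22, 3.17, 2.42, 1.54 and 3.29 CPM in native bladders. Ileum graft 3 was the highest by far, and grafts 1 and 4 lay within the range of the native bladders. Its log2 fold change was 1.61 (SE 0.50, edgeR adjusted p = 0.0295). In the fit blocked by animal its adjusted p was 0.12, and the call was lost without ileum graft 3 or native bladder 1, 3, 4 or 5 (log2 fold change 0.87 to 1.83 over the 10 omissions, adjusted p up to 0.199).

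None of the 4 inhibitors passed in the ileum grafts. TIMP1, the most abundant soluble inhibitor, had 43.6, 1010, 199, 131 and 109 CPM in ileum grafts, against 286, 273, 239, 1250 and 408 CPM in native bladders. Ileum graft 2 was the exception to a lower graft in 4 of 5 animals, and the log2 difference was -0.71 (95% interval -2.25 to 0.83). TIMP2, the partner of MMP14 in activating MMP2, had 55.8, 37.4, 133, 39.4 and 33.7 CPM in grafts, against 152, 76.2, 81, 271 and 138 CPM in native bladders (log2 difference -1.27, SE 0.60, edgeR adjusted p = 0.163). TIMP3, which stays bound to the matrix and also inhibits aggrecanases, had 51.6, 4.86, 149, 31.5 and 21.5 CPM in grafts, against 156, 73, 60.9, 300 and 121 CPM in native bladders (log2 difference -1.46, SE 0.80, edgeR adjusted p = 0.239). For TIMP2 and TIMP3 alike, graft 3 was the one above its native bladder. That graft also had the highest summed smooth muscle markers of the group, 75700 CPM against 1650 to 30900 CPM in the other 4 grafts. The part of muscle content in the TIMP2 and TIMP3 values was not tested. TIMP4 had 0.1 to 13.4 CPM in grafts, against 1.35 to 28.8 CPM in native bladders, and its direction turned on native bladder 4: the log2 difference was -0.66 with that library and 1.37 without it.

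Other genes that act with these enzymes changed in part, and their counts stand against the same 15% of all genes tested (7.72% higher and 7.33% lower). Of the 18 other inhibitors and regulators tested, 4 fell and none rose: PCOLCE2 and PCOLCE, which help the procollagen C-proteinase (log2 fold change -5.22 and -1.81), RECK, a membrane inhibitor of MMPs (-1.55), and CST3 (-1.60). Of 22 substrates, DCN, COMP, LUM and FBN1 fell (log2 fold change -2.63, -3.67 and -1.71 for the first 3), and TNC, a glycoprotein of remodelling matrix, rose (3.38). Of 30 other matrix proteases and processing enzymes, 3 rose, led by the meprins MEP1A and MEP1B of the bowel brush border (9.65 for MEP1B), and 3 fell, ADAM9, CTSK and ADAM10 (-1.77, -1.82 and -1.31). Of 12 plasminogen genes, the receptor PLGRKT rose (2.18) and no other passed. The fibroblast markers, which share DCN and LUM with the substrates, summed to 1030 to 6520 CPM in ileum grafts, against 3140 to 18300 CPM in native bladders, with 2 of 6 lower and none higher, and their part in these changes was not tested.

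**Figure D2:**
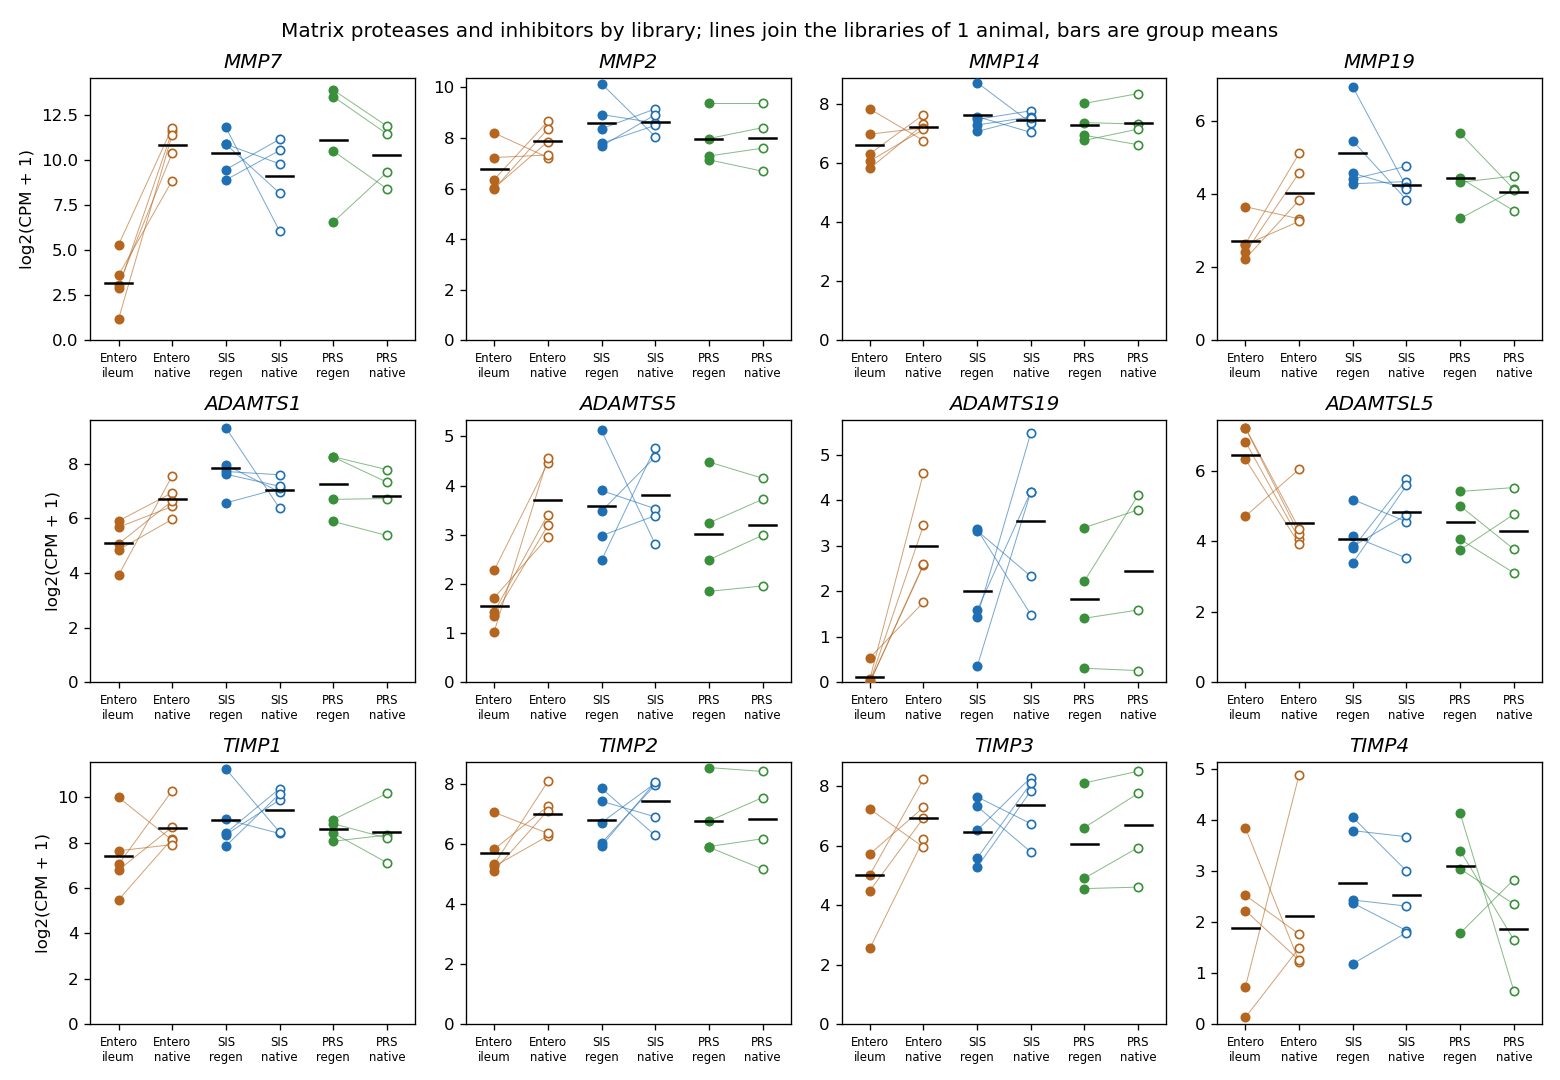
Each panel is 1 gene, with log2(CPM + 1) on the vertical axis and the 6 groups on the horizontal axis; filled points are grafts, open points native bladders, thin lines join the 2 libraries of 1 animal, and bars are group means. MMP7, ADAMTS5 and ADAMTS19 in ileum grafts sit below every native bladder of that arm, while the SIS and PRS grafts overlap their native bladders in all 12 panels.

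The comparison of SIS graft with native bladder asked how far tissue regenerated on the seeded scaffold still differed in its proteases. In the SIS arm no gene of the family passed in either direction, as none of the 17177 genes tested did (0%). An unadjusted p under 0.05 was reached by 5 of the 45, against 4.86% of all genes tested, and DESeq2 called 1, ADAMTS4, against 0.343% of the genes it tested. The 5 were ADAMTS4, MMP3, MMP1, MMP13 and MMP19, all with higher fitted values in the graft. The median log2 difference of the 45 was -0.08, against 0.03 over all genes tested. With 5 animals and this spread, intervals were wide: that of MMP7 ran from -1.23 to 2.79.

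The differences of ADAMTS4, MMP3 and MMP1 rested largely on SIS graft library 2. ADAMTS4, an aggrecanase induced by inflammatory cytokines, had 0.882, 618, 0.869, 9.28 and 24.5 CPM in SIS grafts, against 0.916, 1.05, 0.519, 2.05 and 1.66 CPM in native bladders (log2 difference 6.72, SE 1.49, edgeR adjusted p = 0.332, DESeq2 adjusted p = 1.34e-06). Grafts 2, 4 and 5 were above all native bladders, and grafts 1 and 3 were not. Without graft 2 the edgeR difference was 2.84 (adjusted p = 0.962). The stromelysin MMP3, which activates other MMPs, had 0.576, 814, 0.788, 0.279 and 1.9 CPM in SIS grafts, against 0.862, 2.14, 0.679, 0.205 and 0.299 CPM in native bladders. Only graft 2 left the native range, and the log2 difference of 7.58 (SE 1.77, edgeR adjusted p = 0.332) was 0.07 without it. MMP1 had 6.27, 2090, 32.8, 11.8 and 8.76 CPM in SIS grafts, against 6.66, 10.5, 34.3, 0.614 and 0.555 CPM in native bladders. Its log2 difference was 5.35 (SE 1.64, edgeR adjusted p = 0.622), and 0.50 without graft 2.

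High values in that library were found across the family. Of the 45 tested genes, 28 had their highest SIS graft value in library 2, which is 62.2%, against 33.3% of all genes tested. In 7 of them (MMP1, MMP3, MMP12, ADAMTS3, ADAMTS4, ADAMTS9 and TIMP1) it exceeded the next SIS graft by more than 4-fold, 15.6% of the 45 against 1.69% of all genes tested. TIMP1 had 2410 CPM there, against 230 to 520 CPM in the other 4 SIS grafts, so the inhibitor was high in the same library as the enzymes. ADAMTS9, a versican-cutting enzyme, had 219 CPM, against 11.4 to 14.3 CPM in the others. MMP10, a stromelysin of the same gene cluster as MMP1, had 19.1 CPM, against 0 to 0.155 CPM in the others. IL6, PTGS2 and CCL2 stood at 599, 631 and 1200 CPM in that library, and the 12 plasminogen genes summed to 5200 CPM, against 887 to 1030 CPM. The neutrophil markers summed to 39.3 CPM, inside the 8.33 to 85.1 CPM of the other SIS grafts. That library also had the lowest summed urothelial markers of the SIS grafts, 258 CPM, and the highest summed smooth muscle markers, 31000 CPM. The fibroblast marker COL1A1 had 6780 CPM there, against 1060 to 2330 CPM in the other SIS grafts. What the inflammation genes or the make-up of the tissue have to do with the proteases was not tested. The native bladder of the same animal had 10.5 CPM of MMP1, 2.14 CPM of MMP3 and 0.723 CPM of IL6.

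Some other genes of the family were higher in every SIS graft than in the native bladder of its animal. None of them passed, and the share of all genes tested with that pattern was not computed. MMP13, collagenase-3, had 1.97, 0.841, 0.38, 10.2 and 0.349 CPM in SIS grafts, against 0.0808, 0.0904, 0.0399, 0 and 0 CPM in native bladders. Every graft was above every native bladder, the highest was graft 4, and the log2 difference was 5.82 (SE 1.86, edgeR adjusted p = 0.665) and 4.18 without graft 4. MMP9, the gelatinase of leukocytes, had 13.3, 14.6, 5.38, 3.65 and 4.96 CPM in SIS grafts, against 1.72, 3.19, 3.28, 0 and 0.213 CPM in native bladders. All 5 animals had more in the graft, again with no overlap, and its log2 difference was 2.31 (95% interval -0.35 to 4.96). MMP12, the macrophage elastase, and MMP17, a membrane-anchored enzyme, also stood above the native bladder in 5 of 5 animals. Their log2 differences of 3.26 and 0.73 did not pass. The smallest difference within an animal was only 0.05 for MMP12 and 0.07 for MMP17 on the log2(CPM + 1) scale. The SIS native bladders had lower fitted levels of MMP9, MMP13 and MMP12 than the Entero native bladders (log2 differences -3.63, -3.51 and -3.11). None of these 3 differences passed either. The part of a low native level in the pattern of the SIS arm was not tested. The macrophage markers summed to 106 to 310 CPM in SIS grafts, against 126 to 360 CPM in native bladders.

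MMP7 showed no common direction in this arm. It had 709, 477, 1880, 3600 and 1880 CPM in SIS grafts, against 2270, 1480, 883, 66.1 and 286 CPM in native bladders. The graft was higher in animals 3, 4 and 5 and lower in animals 1 and 2 (log2 difference 0.78, SE 0.98). The urothelial markers moved the same way by animal: they summed to 2270, 258, 5220, 2760 and 4860 CPM in the grafts, against 5050, 4940, 3250, 201 and 1050 CPM in the native bladders. The part of urothelial content in the MMP7 values was not tested.

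The inhibitors likewise overlapped in the SIS arm. TIMP1 had 520, 2410, 326, 343 and 230 CPM in SIS grafts, against 336, 350, 933, 1320 and 1120 CPM in native bladders (log2 difference -0.08). The graft was lower in 3 of 5 animals, and without graft 2 the difference was -1.2 (edgeR adjusted p = 0.962). TIMP2 had 171, 231, 105, 64.8 and 60.2 CPM in SIS grafts, against 119, 77.2, 260, 250 and 266 CPM in native bladders (log2 difference -0.62, 95% interval -1.84 to 0.60). TIMP3 had 198, 158, 90.5, 37.7 and 46.9 CPM in SIS grafts, against 106, 54.2, 312, 228 and 274 CPM in native bladders (log2 difference -0.87, 95% interval -2.50 to 0.75). In all 3 of these genes the grafts of animals 3, 4 and 5 were below their native bladders and those of animals 1 and 2 were above. Smooth muscle markers split the animals alike. They summed to 19600, 31000, 5830, 5220 and 6900 CPM in SIS grafts, against 9300, 7130, 22300, 62300 and 45400 CPM in native bladders. The fibroblast marker COL1A1 did so too. It had 2330, 6780, 1810, 1060 and 1060 CPM in those grafts, against 1590, 1440, 3260, 1990 and 3190 CPM in native bladders. The part of muscle or fibroblast content in the TIMP values was not tested. TIMP4 ranged from 1.28 to 15.7 CPM in SIS grafts and from 2.47 to 11.8 CPM in native bladders.

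**Figure D3:**
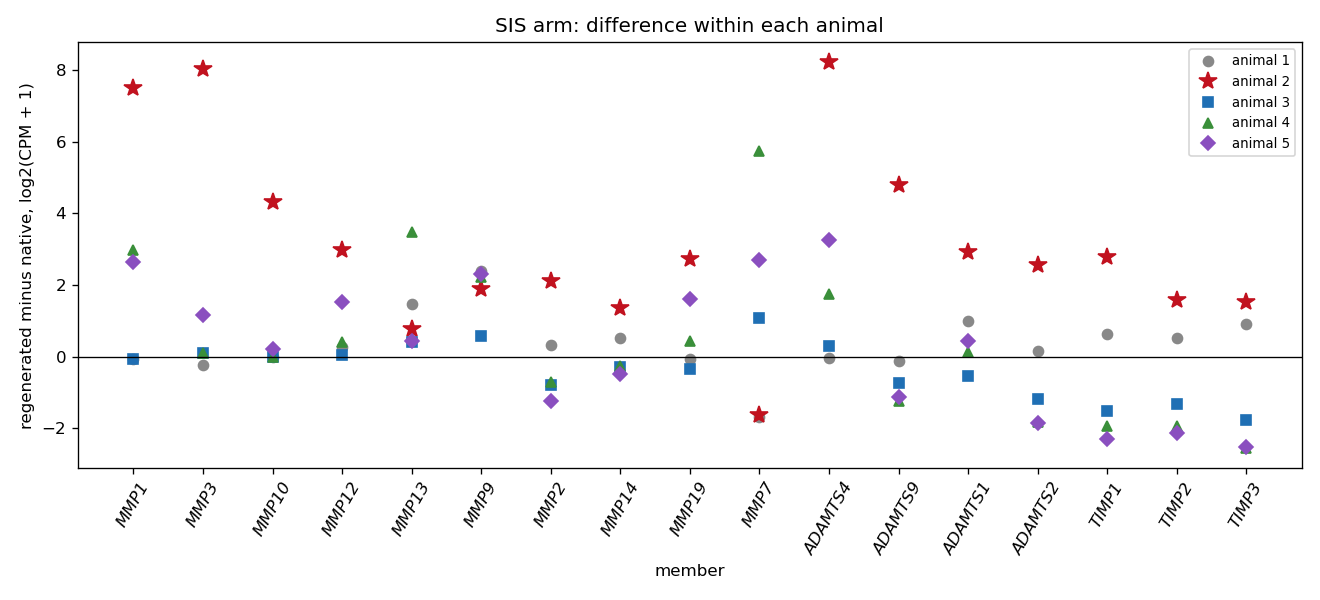
For 17 genes of the family on the horizontal axis, each symbol is the SIS graft minus the native bladder of 1 animal in log2(CPM + 1), and the line marks 0. The red star of animal 2 reaches 7.51 for MMP1, 8.02 for MMP3 and 8.23 for ADAMTS4, while the MMP9 and MMP13 symbols of all 5 animals lie above 0.

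In the PRS arm, too, no gene of the family passed by edgeR (0% of all genes tested), none had an unadjusted p under 0.05 (3.62% of all genes tested), and DESeq2 called none of them (0.143% of the genes it tested). The median log2 difference of the 45 was 0.14, against 0.02 over all genes tested. The smallest p was that of ADAMTS6, an enzyme of fibrillin microfibrils, with 4.99, 10.1, 12.5 and 10.3 CPM in PRS grafts, against 5.37, 0.489, 3.28 and 6.04 CPM in native bladders. Grafts 2, 3 and 4 were above all native bladders and graft 1 was not (log2 difference 1.32, 95% interval -0.06 to 2.69, unadjusted p = 0.0597 by edgeR's test across all genes).

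MMP7 in the PRS grafts spanned the widest range of any group, 1450, 93.3, 15100 and 11800 CPM, against 340, 635, 3780 and 2800 CPM in native bladders. Grafts 3 and 4 exceeded every native bladder and graft 2 was below all of them (log2 difference 1.91, 95% interval -0.39 to 4.22). The uroplakin UPK1A was at 826, 135, 213 and 42.4 CPM in the same grafts, against 498, 2210, 1620 and 168 CPM in their native bladders, and the urothelial markers summed to 2540, 351, 1690 and 1340 CPM, against 1360, 5400, 4240 and 827 CPM. UPK1A lay on the same side of native bladder as MMP7 in animals 1 and 2 and on the other side in animals 3 and 4, while the summed markers did so in animals 1, 2 and 4 and not in animal 3. The part of urothelial content in these MMP7 values was not tested. The animal codes hold the letter F for animals 1 and 2 and the letter M for animals 3 and 4. MMP7 was higher in the M animals of this arm, in graft and native bladder alike. In the native bladders of the Entero and SIS arms the M animals were the lower. The meaning of the letters is not given, and their part was not tested. ADAMTS16 had 5.37, 32.2, 1.75 and 6.19 CPM in PRS grafts, against 2.97, 3.34, 2.28 and 1.87 CPM in native bladders, and was higher in 3 of 4 animals (log2 difference 2.12, 95% interval -0.64 to 4.88). ADAMTSL2 had 2.77, 4.95, 1.17 and 2.96 CPM in PRS grafts, against 4.38, 8.4, 4.48 and 4.13 CPM in native bladders. It was lower in the graft in 4 of 4 animals, although graft 2 lay above 3 of the native bladders (log2 difference -0.85, 95% interval -1.99 to 0.29).

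TIMP3 was the other gene of the family that was lower in the graft in 4 of 4 PRS animals. It had 96.8, 275, 29.1 and 22.6 CPM in grafts, against 216, 360, 60.4 and 23.4 CPM in native bladders. The share of all genes tested that were lower in 4 of 4 animals was not computed, so no result is read from this pattern. Animal 4 differed by only -0.05 on the log2(CPM + 1) scale, and the fitted log2 difference of -0.64 (95% interval -2.45 to 1.17) was 0.08 without native bladder 2. TIMP1 had 265, 515, 455 and 342 CPM in PRS grafts, against 320, 1140, 294 and 138 CPM in native bladders. TIMP2 had 108, 373, 59.4 and 58.6 CPM in PRS grafts, against 186, 341, 71.5 and 35.1 CPM in native bladders. Each was higher in 2 animals and lower in 2, at fitted log2 differences of -0.27 and -0.08, and without native bladder 2 these were 0.66 and 0.61. TIMP4 ran from 2.46 to 16.6 CPM in PRS grafts and from 0.577 to 6.16 CPM in native bladders, with the graft higher in 3 of 4 animals.

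**Figure D4:**
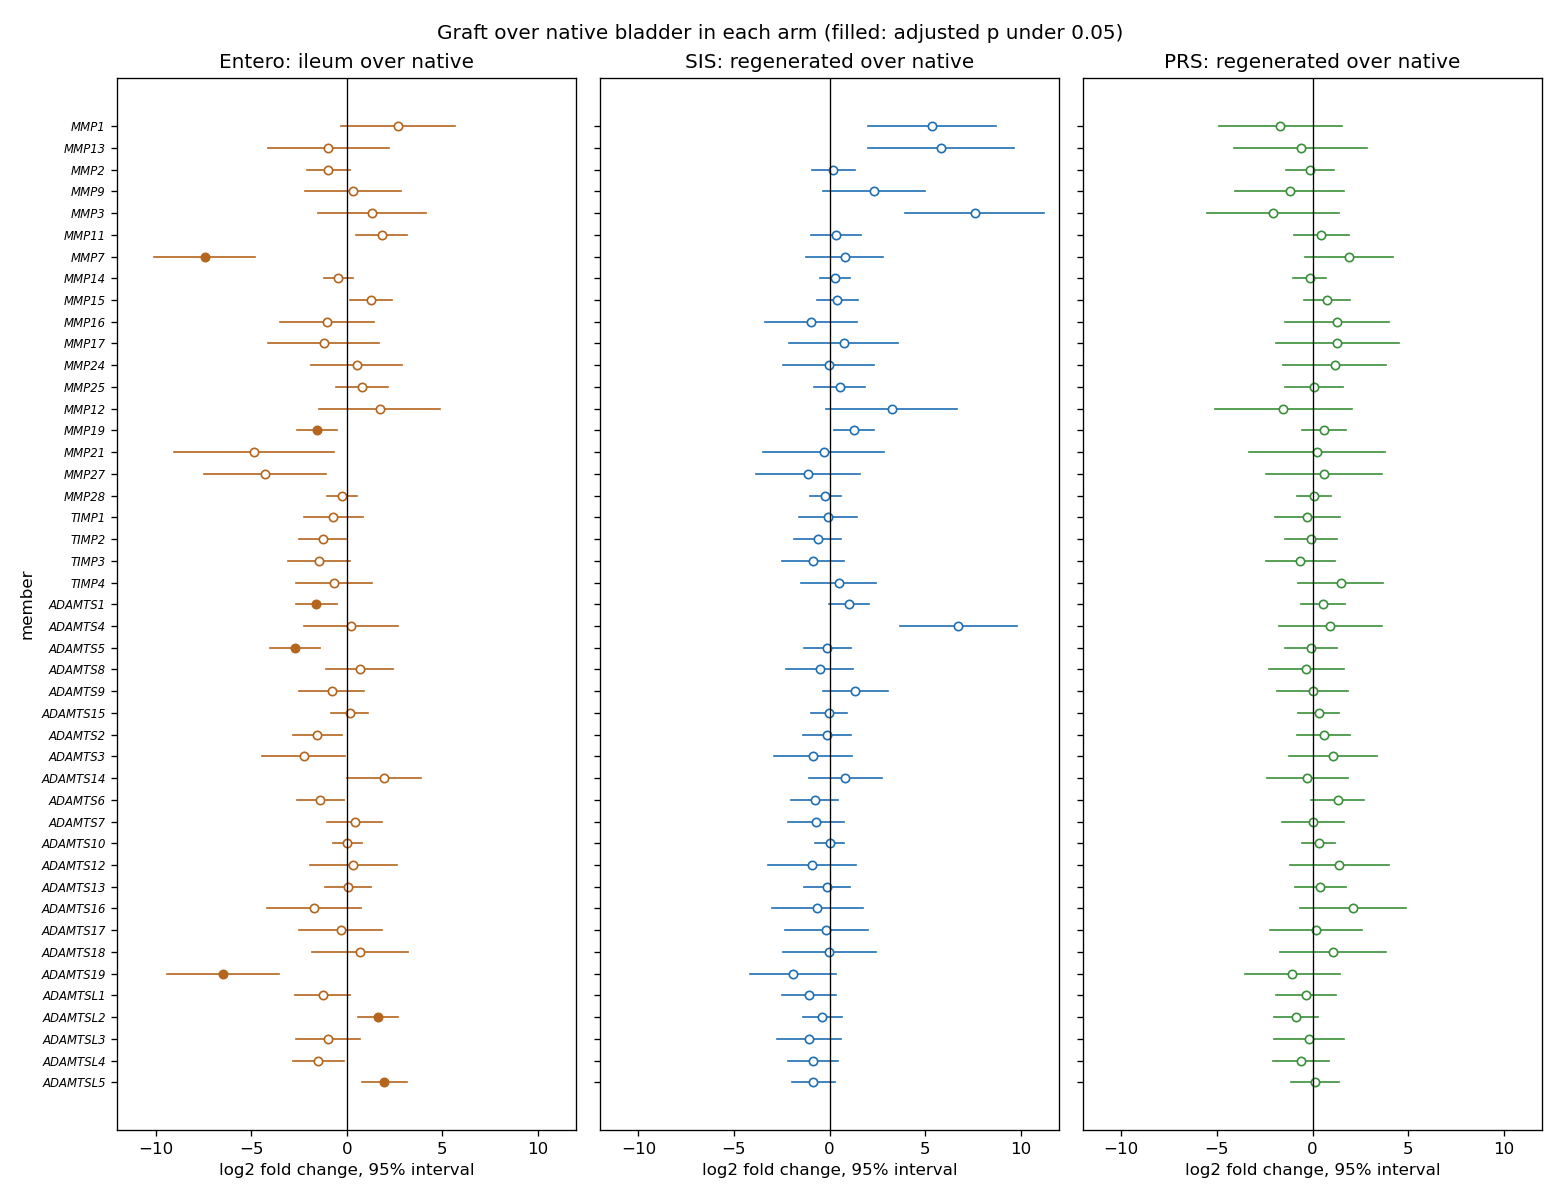
For each of the 45 tested genes the point is the log2 fold change of graft over native bladder and the line its 95% interval, with 1 panel per arm; filled points have an adjusted p under 0.05. The Entero panel has 7 filled points, 5 left of 0 and 2 right of it, and the SIS and PRS panels have none.

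Whether the graft's departure from native bladder differed between arms was tested directly as a difference of log2 fold changes. Set against the Entero arm, the departure of the SIS arm was higher for 4 genes and lower for 1, against 6.56% of all genes tested in either direction (3.59% higher). The 4 were MMP7 (difference 8.21, SE 1.56, edgeR adjusted p = 0.00148), MMP19 (2.83, SE 0.72, adjusted p = 0.0155), ADAMTS1 (2.63, SE 0.72, adjusted p = 0.026) and ADAMTS4 (6.51, SE 1.81, adjusted p = 0.0277), and the 1 was ADAMTSL5 (-2.81, SE 0.79, adjusted p = 0.0299). Blocking by animal left MMP7 alone (8.81, adjusted p = 0.0106), against 3.93% of all genes tested. Without SIS graft 2, ADAMTS1 and ADAMTS4 did not pass (2.06 and 2.64, adjusted p = 0.0634 and 0.299), and ADAMTS4 also did not pass without ileum graft 5, Entero native bladder 3 or SIS native bladder 3. ADAMTSL5 was lost in 11 of 20 omissions (ileum graft 3 or 5, Entero native bladder 1, 2, 3 or 5, SIS graft 3, 4 or 5, or SIS native bladder 4 or 5), with differences from -3.47 to -2.55 and an adjusted p of up to 0.0656. The count of 5 was 8 without ileum graft 2, and 3 without ileum graft 5, Entero native bladder 3 or SIS graft 2.

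Set against the Entero arm, the departure of the PRS arm was higher for MMP7 alone (difference 9.35, SE 1.72, edgeR adjusted p = 0.00213), against 3.49% of all genes tested (1.58% higher). The call held in each of 18 fits that leave out 1 library, with differences from 8.67 to 10.32, and in the fit blocked by animal (8.95, adjusted p = 0.0263, against 1.4% of all genes tested). An unadjusted p under 0.05 was reached by 12 of the 45, against 16% of all genes tested. Further genes passed in some of those fits: the count was 3 without ileum graft 2, and 2 without ileum graft 1 or 4 or PRS graft 2. These tests share the Entero libraries. Between the PRS and SIS arms no gene of the family passed by edgeR or DESeq2 (0% and 0.0899% of the genes tested), and 5 had an unadjusted p under 0.05, against 3.98% of all genes tested. Among the 5, MMP3, MMP1 and ADAMTS4 had differences of -9.65, -7.03 and -5.78, and without SIS graft 2 these were -2.14, -2.18 and -1.9.

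Graft against graft, the SIS grafts differed from the ileum grafts in 12 genes, 10 higher and 2 lower, against 21.1% of all genes tested (10.9% higher and 10.2% lower). MMP7 was higher (log2 fold change 7.05, SE 1.27, edgeR adjusted p = 0.000253), as were MMP19 (2.91), ADAMTS1 (2.91), ADAMTS5 (2.73), ADAMTS19 (5.42), ADAMTS4 (5.72), ADAMTS9 (2.97), MMP2 (1.87), MMP3 (5.36) and ADAMTS2 (2.31), the enzyme that trims the N-propeptide of procollagen. ADAMTSL5 (-2.54) and MMP15 (-1.83) were lower. Without SIS graft 2 the count was 7: ADAMTS4, ADAMTS9, ADAMTS2 and MMP2 did not pass (1.85, 0.93, 1.43 and 1.25, adjusted p = 0.206, 0.356, 0.0822 and 0.0986), and MMP3 turned to -2.16 (adjusted p = 0.148). MMP2 was also lost without ileum graft 5. Of the 22 substrates, 8 were higher in SIS grafts and none lower, and of the 18 other inhibitors and regulators 7 were higher and none lower. Without SIS graft 2 these counts were 4 higher and 1 lower, and 4 higher and none lower, against 19.6% of all genes tested (10.1% higher). The fibrillar collagens COL1A1, COL1A2 and COL3A1 were among those higher with all libraries (2.28, 2.19 and 2.45), and without SIS graft 2 their log2 differences were 1.54, 1.63 and 1.79 (edgeR adjusted p = 0.168, 0.0742 and 0.0334). The inhibitor TFPI2 was higher with all libraries (6.36) and did not pass without that graft (3.37, edgeR adjusted p = 0.0896). The fibroblast markers, which include those collagens, summed to 5800 to 32200 CPM in SIS grafts, against 1030 to 6520 CPM in ileum grafts.

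The PRS grafts differed from the same ileum grafts in 7 genes, 6 higher and 1 lower, against 14% of all genes tested (7.21% higher). Higher were MMP7 (log2 fold change 9.11, SE 1.39, edgeR adjusted p = 6.93e-05), ADAMTS1 (2.39), MMP19 (2.04), ADAMTS6 (2.41), ADAMTS19 (5.19) and ADAMTS5 (2.14), and ADAMTSL5 was lower (-2.02). MMP7, ADAMTS1 and ADAMTS6 passed in each of 9 fits without 1 library. MMP19 was lost without PRS graft 1, ADAMTS19 without PRS graft 2, ADAMTS5 without ileum graft 2, 4 or 5 or PRS graft 2, and ADAMTSL5 without ileum graft 3 or 5 or PRS graft 1 or 3, with adjusted p of up to 0.0845, 0.0515, 0.2 and 0.0969. In a fit of the compared groups alone 3 genes passed, MMP7, ADAMTS1 and MMP19, and ADAMTS6 did not (2.40, edgeR adjusted p = 0.0606). PRS and SIS grafts did not differ in any gene of the family by edgeR or DESeq2 (0% and 0.0809% of the genes tested), while 5 had an unadjusted p under 0.05, against 4.44% of all genes tested. MMP3 had the smallest of these, at a log2 difference of -8.89, and MMP1 and ADAMTS4 were also among them (-6.06 and -4.35). Without SIS graft 2 the 3 differences were -1.37, -1.21 and -0.47.

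The native bladders of the arms were compared as a check on the baseline. No gene of the family passed by edgeR or DESeq2 between any pair of arms (0% of all genes tested by edgeR, and 0.311%, 0.164% and 0.572% by DESeq2 for SIS against Entero, PRS against Entero and PRS against SIS). An unadjusted p under 0.05 was reached by 3, 0 and 1 of the 45 genes in those pairs, against 4.14%, 2.15% and 7.02% of all genes tested. The smallest p belonged to MMP9 in SIS against Entero native bladder, at 1.72, 3.19, 3.28, 0 and 0.213 CPM in the SIS arm, against 33.9, 54.2, 7.57, 3.23 and 6.07 CPM in the Entero arm (log2 difference -3.63, SE 1.36). Every Entero native bladder except library 4 lay above all 5 SIS native bladders. The neutrophil markers, mostly S100A9, summed to 1.92 to 90.8 CPM in the SIS arm, against 111 to 368 CPM in the Entero arm.

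Levels of 5 genes were set against markers of cell types across the 14 native bladders, 1 library per animal. The relation was computed for 6 pairs on the log2(CPM + 1) scale with 100000 permutations each. No other pair was computed, nor the share of all genes that reach such values. DES ranged from 1140 to 33400 CPM in these bladders, so their make-up differed widely. The relations therefore do not show that a gene goes with 1 cell type more than with another. TIMP3 rose with smooth muscle markers (Pearson r = 0.93, Spearman rho = 0.86, permutation p = 4e-05 and 0.00024, adjusted over the 6 pairs 0.00012 and 0.00039), and r was 0.91 without the 2 libraries farthest from the median. MMP2 rose with fibroblast markers (r = 0.86, rho = 0.87, permutation p = 6e-05 and 0.00026, adjusted 0.00012 and 0.00039; r = 0.77 without 2). TIMP1 did the same (r = 0.86, rho = 0.85, permutation p = 0.00016 and 0.0002, adjusted 0.00024 and 0.00039; r = 0.80 without 2). MMP9 rose with neutrophil markers (r = 0.85, rho = 0.93, permutation p = 6e-05 and 2e-05, adjusted 0.00012 and 0.00012; r = 0.85 without 2) and with macrophage markers (r = 0.64, rho = 0.64, permutation p = 0.0124 and 0.0173, adjusted 0.0149 and 0.0208; r = 0.47 without 2). MMP7 and urothelial markers had r = 0.68 but rho = 0.43 (permutation p = 0.0152 and 0.126, adjusted 0.0152 and 0.126), and r was 0.33 without the 2 farthest libraries, on which the relation rests. These values pool 3 arms, and each relation was also computed within arms, with both measures centred on their arm's mean and permuted within arms, a choice made after seeing the data. Pearson's r was then 0.93 for TIMP3, 0.85 for MMP2, 0.85 for TIMP1, 0.80 for MMP9 with neutrophil markers and 0.72 for MMP7 (permutation p adjusted over the 6 pairs 0.00082, 0.0003, 0.00051, 0.00295 and 0.0147), and Spearman's rho was 0.91, 0.91, 0.90, 0.81 and 0.58 (adjusted 0.0011, 0.00075, 0.00066, 0.00388 and 0.069). MMP9 with macrophage markers did not pass within arms (r = 0.50, rho = 0.53, permutation p adjusted 0.0517 and 0.0739).

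**Figure D5:**
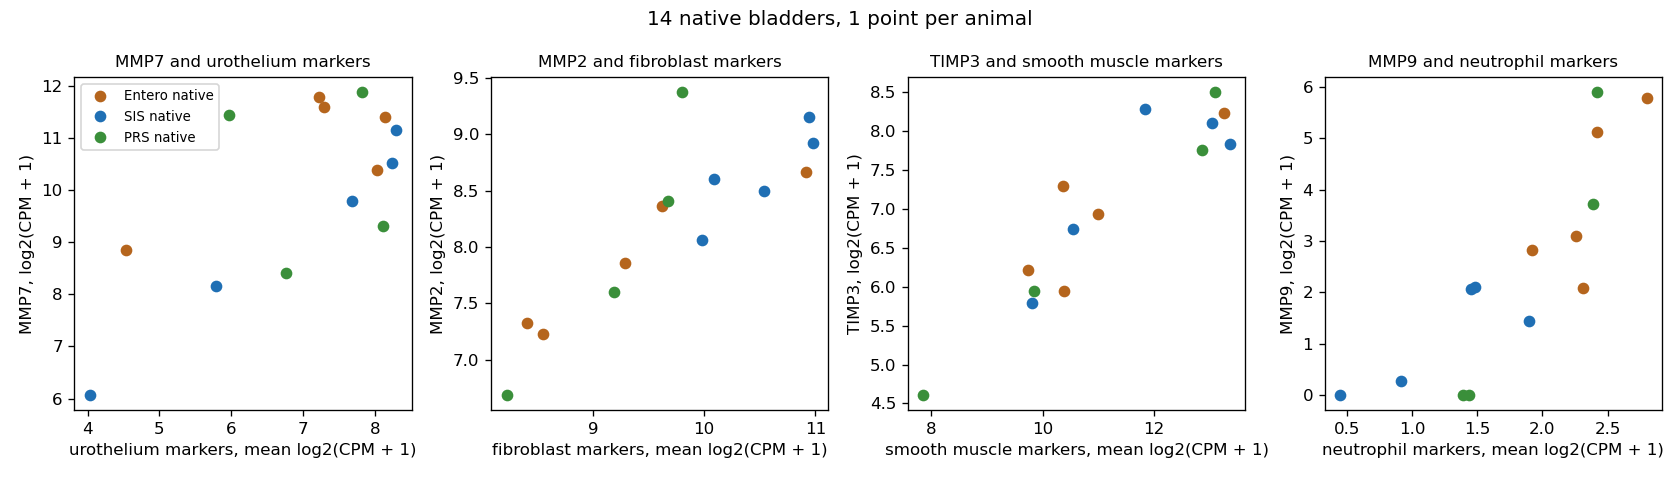
Each point is the native bladder of 1 animal, coloured by arm; the horizontal axis is the mean log2(CPM + 1) of a marker list and the vertical axis the log2(CPM + 1) of 1 gene. TIMP3 with smooth muscle (r = 0.93), MMP2 with fibroblast (r = 0.86) and MMP9 with neutrophil markers (r = 0.85) line up, and MMP7 with urothelial markers (r = 0.68) is spread more widely.

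The remaining genes did not pass in any graft comparison with native bladder. MMP2 had 63.8, 293, 150, 81.4 and 62.7 CPM in ileum grafts, against 232, 149, 159, 402 and 328 CPM in Entero native bladders. It had 486, 1140, 330, 220 and 205 CPM in SIS grafts, against 388, 266, 568, 361 and 482 CPM in SIS native bladders, and 251, 660, 155 and 140 CPM in PRS grafts, against 340, 661, 194 and 102 CPM in PRS native bladders. The groups overlapped in each arm, at log2 differences of -0.96, 0.20 and -0.11. MMP14 was steadier, at 55.4 to 226 CPM in ileum grafts, 133 to 421 CPM in SIS grafts and 108 to 258 CPM in PRS grafts, against 108 to 198, 131 to 218 and 97.1 to 325 CPM in the native bladders of those arms. MMP28 ran from 33.2 to 139, 51.4 to 104 and 34.2 to 109 CPM in the same grafts, against 49.7 to 147, 54.6 to 117 and 49.3 to 116 CPM in their native bladders.

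Among the procollagen N-proteinases, ADAMTS14 had 18.2, 21.8, 1.36, 9.41 and 7.34 CPM in ileum grafts, against 3.14, 8.63, 0.238, 0.73 and 2.28 CPM in native bladders, above its native bladder in all 5 animals (log2 difference 1.95, SE 0.95, edgeR adjusted p = 0.176). ADAMTS2, its relative with the same substrate, lay the other way, at 3.84 to 13.2 CPM in ileum grafts, against 7.77 to 56.9 CPM in native bladders (log2 difference -1.54, edgeR adjusted p = 0.0989). ADAMTS6 and MMP27 were lower in the ileum graft in all 5 animals. Their median differences within animals were -1.01 and -1.09 on the log2(CPM + 1) scale, and neither gene passed. ADAMTS13, which trims von Willebrand factor, and ADAMTS10, an enzyme of fibrillin microfibrils, had log2 differences between -0.13 and 0.40 in the 3 arms. ADAMTSL4, a fibrillin-binding protein and the ADAMTS-like gene with the highest mean TPM in each group of native bladders, had 9.25 to 99.3, 34.5 to 133 and 28.8 to 179 CPM in ileum, SIS and PRS grafts, against 43.8 to 160, 51.7 to 231 and 28.2 to 217 CPM in the native bladders of those arms. MMP16, MMP17, MMP21, MMP24, MMP27, ADAMTS17 and ADAMTS18 stayed at or below 9.02 CPM in each of the 28 libraries. Over all 28 libraries ADAMTS7 ran from 4.29 to 90.3 CPM, ADAMTS8 from 1.96 to 107 CPM, ADAMTS15 from 2.37 to 20.9 CPM, ADAMTS12 from 0 to 24.3 CPM and ADAMTS3 from 0 to 20.6 CPM. ADAMTSL1 ran from 0.449 to 28.5 CPM, ADAMTSL3 from 1.03 to 43 CPM and MMP25, a membrane-anchored leukocyte enzyme, from 0.327 to 28.9 CPM. The genes that were not tested reached 0.211 CPM for MMP8, 0.163 CPM for MMP20, 0.577 CPM for ADAMTS20 and 19.1 CPM for MMP10, the last in SIS graft 2.

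Several of these genes sit side by side. In the order of the RefSeq annotation of the baboon assembly Panubis1.0, in which 48 of the 50 symbols were found, MMP13, MMP12, MMP3, MMP1, MMP10, MMP8, MMP27, MMP20 and MMP7 follow each other with 1 other protein-coding gene among them, and ADAMTS1 neighbours ADAMTS5. Within that MMP cluster the levels differed by library and by gene. SIS graft 2 had 2090 CPM of MMP1, 814 CPM of MMP3, 19.1 CPM of MMP10 and 11.3 CPM of MMP12, but 0.187 CPM of MMP8, 0.841 CPM of MMP13 and 477 CPM of MMP7, which was the lowest MMP7 value of the SIS grafts. Reads of near-identical stretches in the cluster may have been assigned to either copy, so single low values there are uncertain.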

How the data were processed

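RNA was sequenced in 28 libraries, the graft and the native bladder of 14 animals in 6 groups. The values are whole-number read counts per gene as the authors deposited them, with no normalization. The submitters' processing notes name featureCounts 1.5.0-p3, StringTie 1.3.3b and HISAT2 2.0.5. Genome build, annotation release and strand setting: not given in the sources used here. Coordinates are therefore left out, and a gene overlapped by another, on either strand, may hold that gene's reads. Per the labels' protocols, messenger RNA was selected with poly-T beads and directional paired-end libraries were made.

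Counts were tested with edgeR 4.0.16 (limma 3.58.1, R 4.3.3): filterByExpr with a minimum count of 10, TMM scaling, and 1 quasi-likelihood model of all 28 libraries with the 6 groups as terms, tested on simulated data first. P-values were adjusted by Benjamini and Hochberg's method over all 17177 genes tested, with a threshold of 0.05. Standard errors (SE) were taken back from the F value, and intervals are at 95%. CPM uses TMM-scaled totals, and TPM uses the deposited gene lengths. Within-animal differences use log2(CPM + 1). For genes said to lie on 1 side in every animal, or not to overlap between groups, the share over all genes was not computed. The limit for a gene without a read is 3 counts over the group's TMM-scaled total and covers counting error only.

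Animals were matched by the code in the labels. Deviations of an animal's graft and native library from their group means had correlations from -0.3 to 0.71 over the 14 pairs. A fit blocked by animal was an alternative, as were DESeq2 1.42.0, edgeR's RLE scaling, no filter, a fit of the compared groups alone, and leaving out each library. Relations within arms were added after seeing the data. P-values of the main fit rest on the spread between libraries of a group, pooled over the 6 groups, without the pairing by animal. The fit blocked by animal uses that pairing. Genes named with all their values are those that passed in a graft comparison, the 4 of smallest p where none passed, the TIMPs and the most abundant of a class. MMP9, MMP11, MMP15, TIMP4, ADAMTS9, ADAMTS14, ADAMTS16, MMP10, MMP12, MMP17 and MMP27 were also described after their values were seen. The genes and all lists were chosen with earlier results of these data known. Of 142 genes in the lists of related genes and cell type markers, 133 were found in the table by symbol. Permutations and plots used Python 3.11.15, scipy 1.17.1, pandas 2.3.3 and matplotlib 3.10.9.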

Additional observations from a re-analysis of the deposited data

Results flagged for a closer look

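Within groups of 4 or 5 libraries, 138 sets of values of 23 genes were checked on the log2(CPM + 1) scale for a library far from the others. This flagged 13, and chance alone flags about 1 in 20 such groups. SIS graft 2 was flagged for MMP1 (2090 CPM, against 6.27 to 32.8 CPM in the other SIS grafts), MMP3 (814 CPM, against 0.279 to 1.9 CPM) and ADAMTS9 (219 CPM, against 11.4 to 14.3 CPM). Ileum graft 2 was high for MMP13 (1.15 CPM, against 0 to 0.15 CPM in the other ileum grafts), MMP19 (11.6 CPM, against 3.72 to 5.26 CPM) and ADAMTS19 (0.451 CPM, against 0 to 0.0475 CPM). Ileum graft 4 was low for MMP15 (78.4 CPM, against 220 to 277 CPM).

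Among native bladders, Entero library 3 was high for MMP3 (4.0 CPM, against 0.615 to 1.24 CPM in the other libraries of its group) and ADAMTS4 (5.04 CPM, against 1.19 to 1.92 CPM). Entero library 4 was high for TIMP4 (28.8 CPM, against 1.35 to 2.42 CPM) and ADAMTSL5 (65.1 CPM, against 14.3 to 19.6 CPM). SIS library 4 was low for MMP15 (26.6 CPM, against 48.1 to 55.2 CPM), and PRS library 2 was high for ADAMTSL2 (8.4 CPM, against 4.13 to 4.48 CPM).

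The change of graft against native bladder differed between arms, by a test of the difference itself, in 6 cases. For SIS minus Entero these were 5 of the 45 genes, against 6.56% of all genes tested. For PRS minus Entero it was 1 of the 45, against 3.49%. From the Entero arm the SIS arm differed by 8.21 on the log2 scale for MMP7, 2.83 for MMP19, 2.63 for ADAMTS1, 6.51 for ADAMTS4 and -2.81 for ADAMTSL5. The PRS arm differed from the Entero arm by 9.35 for MMP7. In the fit blocked by animal MMP7 alone passed. Without SIS graft 2, ADAMTS1 and ADAMTS4 did not pass, and ADAMTSL5 was lost in 11 of 20 omissions.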

How the results depend on the processing

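The 7 genes called between ileum graft and native bladder were 6, 7 or 9 under the other settings, and 4 to 7 when 1 library was left out. In the SIS arm DESeq2 called 1 gene, and in the PRS arm no setting called any. The difference SIS minus Entero gave 5 calls, 1 with the replicate block (the animal), 9 by DESeq2 and 3 to 8 without 1 library. The difference PRS minus Entero gave 1, 4 by DESeq2 and 1 to 3 without 1 library. SIS against ileum grafts gave 12, and 7 to 16 without 1 library. PRS against ileum grafts gave 7, 3 in a fit of the compared groups alone and 5 to 9 without 1 library. The other comparisons gave 0 in every setting run. The block fit moved no other count by more than 1.5 times. The share over all genes tested moved with the setting too. For the Entero arm it was 15% in the main fit, 12.7% with the block and 20.2% by DESeq2. For SIS minus Entero these shares were 6.56%, 3.93% and 10.5%, and for PRS minus Entero 3.49%, 1.4% and 6.71%. No result about these genes is read from the change in counts.

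Among single genes, leaving out 1 library kept direction and side of the threshold in 708 of the values, ended the call in 52 and reversed the sign in 15; other settings kept 304, ended 17, added 1 and reversed 1. The reversed values, in log2, were TIMP4 in the Entero arm without native bladder 4 (range over omissions -1.63 to 1.37); TIMP1 in the SIS arm without graft 1, 3, 4 or 5 or native bladder 4 or 5 (0.03, 0.10, 0.09, 0.15, 0.16 and 0.06; range -1.2 to 0.16); TIMP1 in the PRS arm with the replicate block (0.13) and without native bladder 2 (range -0.57 to 0.66); TIMP2 in the PRS arm without graft 1, 3 or 4 or native bladder 2 (0.04, 0.18, 0.18 and 0.61; range -1.07 to 0.61); TIMP3 there without native bladder 2 (range -1.74 to 0.08); MMP3 in SIS against ileum grafts without SIS graft 2 (range -2.16 to 5.89); and MMP11 in PRS against Entero native bladder without PRS native bladder 4 (range -0.32 to 1.24). Of the 6 relations over native bladders, MMP9 with macrophage markers no longer passed within arms (r = 0.50). The cause was not tested. Depth limits genes for which single libraries held no read. Among these were MMP13, MMP21, ADAMTS19, ADAMTS16, MMP1, MMP3, MMP9, MMP12 and MMP17. The abundant genes are limited by 4 or 5 animals per group.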
